A study of Mus musculus with 9 samples.

Results

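Transcription factors of the primitive streak and its organizer were followed in mouse pluripotent cells with and without a block of Wnt secretion. The set was a list of 10 named genes, Lhx1, Gsc, Eomes, Mixl1, Mesp1, Mesp2, Evx1, Tbx6, Noto and Msgn1. Of these, 9 were measured among the 18193 genes tested. Noto, a homeobox gene of the node and notochord, has no probe set under its name in the platform annotation used and is not analysed here. Lhx1, Gsc and Eomes were treated as anterior genes and the other 6 measured genes as posterior ones. Mixl1 and Eomes are transcribed along much of the streak, so that this division is a convention of the list.

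RNA was measured on 9 Affymetrix Mouse Genome 430 2.0 arrays, 3 for each of 3 groups, all labelled with the strain C57BL/6. EpiSCs, stem cells in the primed state of the epiblast after implantation, received either vehicle or IWP2, which inhibits the acyltransferase Porcupine and so keeps cells from secreting Wnt proteins. Both EpiSC groups shared N2B27 medium with 20 ng/ml of Activin A and 12 ng/ml of bFGF and a coating of gelatine and serum. ESCs, which stand for the earlier naive state, were kept on gelatine in N2B27 with 1000 U/ml of LIF and 250 ng/ml of Wnt3a, so that cell type, medium and coating changed together. The sources used here give neither the dose and duration of IWP2 nor the number of cell lines. Their protocol speaks of Wnt3a added after IWP2 and of a medium change beforehand, but no label of the 9 arrays names added Wnt3a for EpiSCs. The labels call the replicates biological, and p-values set a difference against the spread between them, estimated over the 3 groups together. Whether the replicates come from separate cell lines is not known.

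The primitive streak is the site of the gastrulating embryo where epiblast cells leave the epithelium to become mesoderm and definitive endoderm. It is induced by Nodal, Wnt and BMP signals. Its anterior end gives rise to the organizer and to anterior mesendoderm, where Lhx1 and Gsc act, and Eomes directs cells to definitive endoderm and to early cardiac mesoderm. The posterior and later streak makes paraxial and ventral mesoderm and uses factors such as Tbx6, Msgn1, Mesp1, Mesp2 and Evx1. Activin A, which acts through the receptors that Nodal uses, was present in both EpiSC groups.

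ESCs and EpiSCs differed in the markers of their states. All 10 ESC markers examined, Zfp42 among them, were called higher in ESCs by 2-fold or more, and of 10 EpiSC markers 7 were lower and 3 higher in ESCs than with vehicle. The 3 higher ones were Pou5f1, Sox2 and Nanog, which both states use. Of all genes 27.9% were called lower and 38.7% higher in ESCs than with vehicle, 6.87% higher by at least 2-fold. With IWP2, 4 of the EpiSC markers fell, led by Cdh2 (-1.42) and Fgf5 (-2.48), and 4 rose, led by Sox3 (1.37) and Zic2 (0.69). Of the ESC markers 3 fell and 1 rose with IWP2, where 16.8% of all genes tested fell and 16.6% rose. The part of these changes in the differences of the 9 genes was not tested. Values are log2 signals after RMA, without a statement of which probe sets were detected. As a mark of low signal the lower quartile over all values, 3.72, was used, and the median was 5.24. The group means of the 10 ESC markers in the EpiSC groups ran from 2.39 to 6.09 with a median of 3.75. Klf4 (-0.69), Klf2 (-0.65) and Tfcp2l1 (-0.70) were the 3 that fell with IWP2, so this range does not measure signal without RNA. How far low signals differ between probe sets is thus not known, and signals of different genes were not ranked against each other.

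The promoters of the 3 anterior genes are shown because these genes moved together. Each stretch is the 250 bases before an annotated start, from RefSeq on GRCm38.p6, 5′ to 3′ on the strand of the gene. Capitals mark matches to 5 short motifs searched on both strands, which were CTTTGAT for TCF/LEF factors, TGTGNATT for FoxH1, CAGAC for Smad proteins, TAATCC for Gsc and Otx factors, and GGTGTG for T-box factors. Windows were found for 9 of the 10 genes, Mixl1 being the one without. The Lhx1 window lies at chr11:84525535-84525784 on the minus strand, that of Gsc at chr12:104473237-104473486 on the minus strand and that of Eomes at chr9:118477939-118478188 on the plus strand. The gene annotation of the same build starts Eomes at 118478186, so the last bases of its window lie within the gene.
Lhx1: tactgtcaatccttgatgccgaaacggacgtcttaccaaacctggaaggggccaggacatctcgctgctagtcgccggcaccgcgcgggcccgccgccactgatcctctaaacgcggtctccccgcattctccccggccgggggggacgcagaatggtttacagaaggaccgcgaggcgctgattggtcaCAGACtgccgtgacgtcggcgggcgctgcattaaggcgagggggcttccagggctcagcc
Gsc: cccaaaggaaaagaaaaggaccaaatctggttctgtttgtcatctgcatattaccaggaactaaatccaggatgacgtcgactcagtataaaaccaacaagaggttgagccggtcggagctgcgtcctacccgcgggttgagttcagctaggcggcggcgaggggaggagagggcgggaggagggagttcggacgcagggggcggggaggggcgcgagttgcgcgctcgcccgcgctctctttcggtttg
Eomes: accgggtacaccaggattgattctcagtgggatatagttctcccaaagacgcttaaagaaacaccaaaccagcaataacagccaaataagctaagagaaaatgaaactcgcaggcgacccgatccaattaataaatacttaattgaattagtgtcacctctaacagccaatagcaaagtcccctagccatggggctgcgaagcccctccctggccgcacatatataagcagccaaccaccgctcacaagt
The 3 windows held 1 match in all, a CAGAC in that of Lhx1, a pentamer that 42.2% of all 32851 windows hold. Their GC content was 64.8% for Lhx1, 59.2% for Gsc and 46.4% for Eomes, against a median of 52.4% over all windows. CTTTGAT was present in 3.21% of all windows and in 2 of the 9, both of posterior genes. These stretches of 27 bases are shown because they hold the matches for the transcription factors of Wnt signalling.
Mesp1: ctcgagccggCTTTGATatgctgatga
Msgn1: gatgctaattATCAAAGaggggaaagt
The Mesp1 match, in chr7:79793605-79793631, ended 24 bases before the start. The Msgn1 match, in chr12:11209135-11209161, ended 196 bases before it and read on the opposite strand. TGTGNATT, in 3.18% of all windows, and TAATCC, in 6.25%, were in 0 of the 9. GGTGTG, in 16.3% of all windows, was in 1, that of Evx1. A match describes these letters only, and enhancers outside the windows were not examined.

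With IWP2 the 3 anterior genes fell, each by more than 2-fold and with no overlap between groups. Mixl1 fell less, Tbx6 rose slightly at a low signal, and the remaining 4 measured genes were not called. Genes are called at a limma adjusted p under 0.05. Of the 9 measured genes, 5 were called, where 33.5% of all genes tested were. Called lower were 4 (16.8% of all genes) and called higher 1 (16.6%). All 4 falls were at least 2-fold, against 2.81% of all genes, and the 1 rise was not, against 0.901% with such a rise. The vehicle and IWP2 arrays did not overlap for 5 of the 9 genes and for 47.0% of all genes. The median difference was -3.83 log2 for the 3 anterior genes, 0.11 for the 6 posterior genes and 0.03 for all genes tested. The genes were listed with results of these arrays known, so these counts are a description.

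Lhx1 encodes a LIM homeodomain protein needed in the anterior mesendoderm for head formation. Its log2 signals were 10.54, 10.68 and 10.22 on the vehicle arrays and 3.59, 3.44 and 3.47 on the IWP2 arrays. On the ESC arrays they were 3.27, 3.25 and 3.21. The vehicle arrays thus stood far above all 6 others, and all 6 lay below the lower quartile of the arrays. The difference with IWP2 was -6.98 ± 0.104 (SE, limma adjusted p = 2.54e-10), a 126-fold fall on the deposited scale and rank 3 among the falls of all 18193 genes. Since the IWP2 signal lies in the range of low values, this size is limited by the array. A second Lhx1 probe set fell from 8.98 ± 0.318 to 3.56 ± 0.204 (mean ± SD, n = 3), a difference of -5.41.

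Gsc, the homeobox gene goosecoid of the organizer, read 6.50, 6.90 and 6.57 with vehicle and 2.66, 2.80 and 3.01 with IWP2. Its ESC signals were 3.34, 3.34 and 3.37. All 6 arrays without vehicle EpiSCs were again below the lower quartile. The fall with IWP2 was -3.83 ± 0.113 log2 (SE, limma adjusted p = 1.09e-08), rank 32 among all falls. After 32 was added to the linear signals, which shrinks differences between low signals, it was -1.77 and still called.

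Eomes, a T-box gene needed for definitive endoderm and for the exit of mesoderm from the epiblast, read 8.84, 9.08 and 8.58 with vehicle. With IWP2 it read 5.49, 5.29 and 4.87, and in ESCs 6.04, 5.75 and 5.97. No array of these groups fell below the lower quartile. That mark is no detection limit, and the values come without a statement of which probe sets were detected. Whether Eomes RNA remained with IWP2 is therefore not known from these signals. The difference with IWP2 was -3.62 ± 0.168 log2 (SE, limma adjusted p = 2.42e-07), rank 40 among all falls. Its second probe set gave -3.89. Eomes is also transcribed in trophoblast, of whose 11 measured markers 3 fell with IWP2 (16.8% of all genes did), Krt7 (-3.19), Gata3 (-2.03) and Ascl2 (-0.71). The other 8 were not called, among them the defining genes Elf5 (3.06 with vehicle and 3.20 with IWP2) and Cdx2 (4.83 and 4.84). The part of such cells in the fall of Eomes was not tested.

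**Figure D1:**
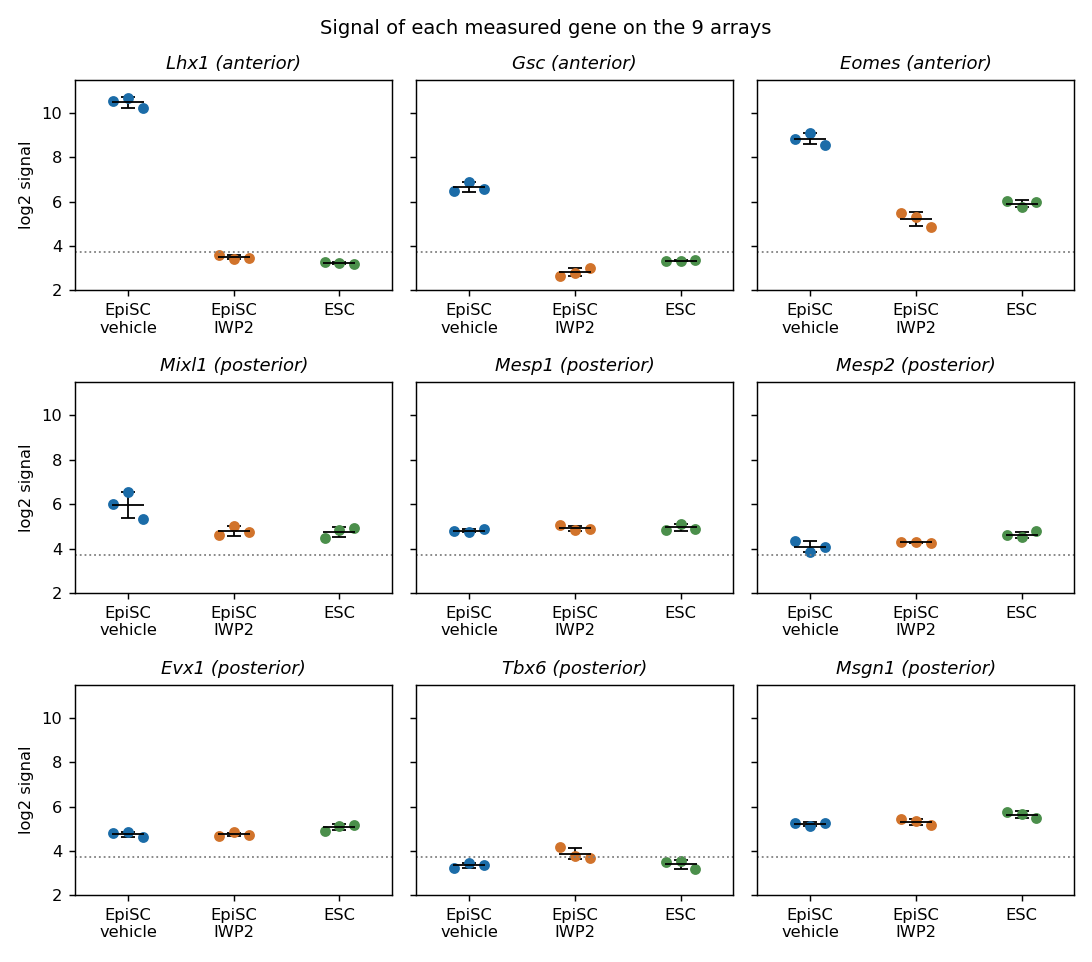
Log2 signal (vertical axis) of the 9 measured genes in vehicle EpiSCs, IWP2 EpiSCs and ESCs. Points are single arrays, replicates 1 to 3 from left to right, bars give the mean ± SD of 3 arrays, and the dotted line marks the lower quartile of all values, 3.72. Only the vehicle points of Lhx1, Gsc and Eomes stand more than 2 log2 units above both other groups, and those of Mixl1 are spread widely.

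Mixl1 encodes a paired-type homeodomain protein of the streak that acts in mesendoderm. It read 6.03, 6.54 and 5.35 with vehicle, 4.61, 5.04 and 4.74 with IWP2, and 4.48, 4.85 and 4.92 in ESCs. The vehicle arrays were all higher than the others, but their SD of 0.600 was the largest of any group and gene measured here. The difference with IWP2 was -1.18 ± 0.259 log2 (SE, limma adjusted p = 0.00618), and leaving out single arrays moved it between -1.49 and -0.90 without ending the call. After 32 was added to the linear signals it was -0.68 and still called. It was not called against a minimum change of 2-fold.

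The vehicle arrays differed in these genes in a partly shared order. Replicate 2 had the highest signal of Lhx1, Gsc, Eomes and Mixl1, and replicate 3 the lowest of Lhx1, Eomes and Mixl1. Gsc was lowest on replicate 1. The second probe sets of Lhx1 and Eomes also were highest on replicate 2 (9.28 and 8.73) and lowest on replicate 3 (8.65 and 8.26). Over all genes tested, replicate 2 was the highest vehicle array for 34.9%, and over the 512 genes that fell by at least 2-fold for 36.1%. Replicate 3 was the lowest for 33% and 30.3% of them. Among listed partners that fell by at least 2-fold, replicate 2 was highest for 4 of 9 node and midline genes and 4 of 7 posterior genes. Replicate 3 was lowest for 5 and 3 of these. The 4 genes were singled out after their values were seen, and the order was not tested.

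Mesp1 and Mesp2 are neighbouring genes of chromosome 7 that encode related bHLH proteins, Mesp1 of early cardiac and cranial mesoderm and Mesp2 of the presomitic mesoderm as somites form. Mesp1 read 4.78, 4.76 and 4.87 with vehicle and 5.05, 4.83 and 4.90 with IWP2. In ESCs it read 4.85, 5.12 and 4.90, so that the 3 groups overlapped. The difference with IWP2 was 0.13 log2 with a 95% interval of -0.06 to 0.32. Mesp2 read 4.35, 3.85 and 4.07 with vehicle, 4.28, 4.30 and 4.25 with IWP2 and 4.60, 4.51 and 4.77 in ESCs. Its difference with IWP2 was 0.19 (95% interval -0.07 to 0.45) and was not called, except without vehicle replicate 1 (0.32, limma adjusted p = 0.0376).

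Evx1, an even-skipped homeobox gene of the posterior streak, read 4.80, 4.84 and 4.64 with vehicle and 4.67, 4.84 and 4.74 with IWP2. These groups overlapped, with a difference of -0.01 log2 (95% interval -0.20 to 0.18). In ESCs it read 4.92, 5.12 and 5.17, higher than on every EpiSC array. Msgn1, a bHLH gene of presomitic mesoderm, read 5.28, 5.13 and 5.28 with vehicle and 5.45, 5.34 and 5.19 with IWP2, a difference of 0.10 (95% interval -0.11 to 0.31). Its ESC signals of 5.77, 5.68 and 5.47 exceeded all EpiSC arrays.

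Tbx6, a T-box gene that directs cells to paraxial mesoderm, read 3.23, 3.46 and 3.37 with vehicle, 4.16, 3.77 and 3.69 with IWP2 and 3.50, 3.56 and 3.18 in ESCs. It lay below the lower quartile on 7 of the 9 arrays. The IWP2 arrays were all higher than the vehicle arrays, by 0.52 ± 0.137 log2 (SE, limma adjusted p = 0.0154). Without vehicle replicate 1 the adjusted p was 0.0592 and the call ended. For Mesp1, Mesp2, Evx1, Tbx6 and Msgn1 the signals of all 9 arrays spanned 0.36 to 0.98 log2, against 4.21 to 7.47 for the anterior genes and 2.06 for Mixl1. A fall of a gene whose RNA is already absent cannot be seen, and these data do not tell absent from weakly transcribed genes.

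**Figure D2:**
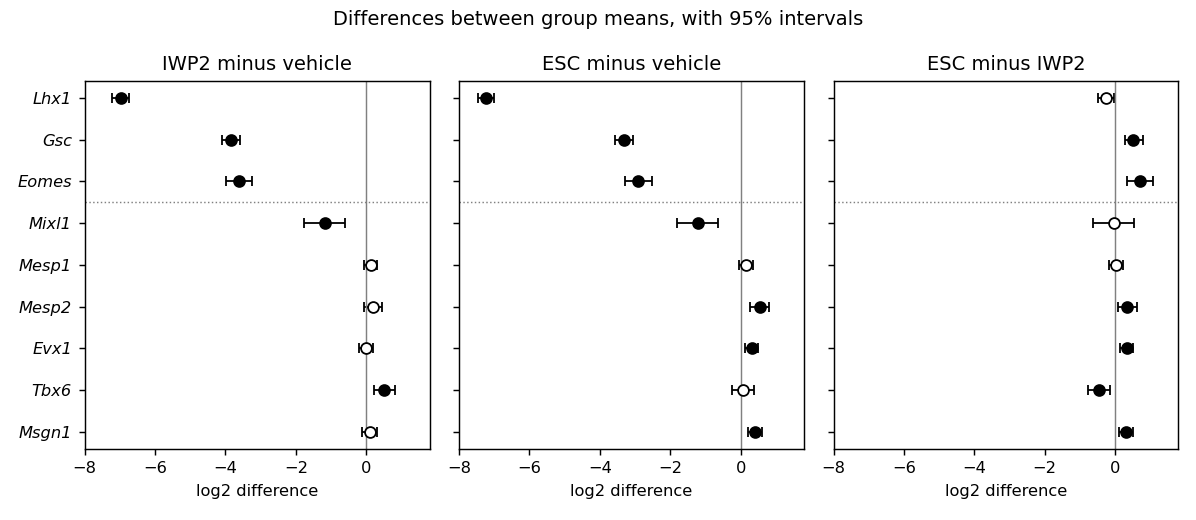
Log2 differences (horizontal axis) between group means for the 9 measured genes in 3 comparisons, with 95% intervals from limma. Filled points have an adjusted p under 0.05, and the dotted line divides anterior from posterior genes. Lhx1, Gsc, Eomes and Mixl1 lie to the left of 0 in both comparisons with vehicle, and all 9 genes lie within 0.70 of 0 for ESC minus IWP2.

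In ESCs the anterior genes and Mixl1 were low as well. ESC minus vehicle was -7.24 ± 0.104 log2 for Lhx1, -3.31 ± 0.113 for Gsc, -2.91 ± 0.168 for Eomes and -1.22 ± 0.259 for Mixl1 (SE, limma adjusted p of 0.00211 or smaller). This comparison shares its vehicle arrays with the IWP2 comparison, so the common direction is no independent evidence. In all, 7 of 9 genes were called, where 66.6% of all genes were, and the groups did not overlap for 7 of 9, against 71.0%. Called lower were 4 genes, all by at least 2-fold, where 27.9% of all genes were lower and 9.63% by at least 2-fold. Called higher were 3, 0 of them by 2-fold, where 38.7% of all genes were higher and 6.87% by 2-fold. These were Mesp2 (0.54 ± 0.116), Msgn1 (0.41 ± 0.094) and Evx1 (0.32 ± 0.084), against a median of 0.12 for all genes. Rises of this size were not particular to them. Of 16 genes of cardiac, vascular and lateral mesoderm 7 were called higher in ESCs and 3 lower, with a median of 0.22. Of 12 related homeobox and T-box genes 6 were higher and 0 lower by limma (0 lower at an unadjusted p under 0.05), with a median of 0.28. With cyclic loess the Evx1 difference was 0.19 and not called. Mesp1 (0.16) and Tbx6 (0.06) were not called.

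ESCs and IWP2 EpiSCs were compared directly, without the vehicle arrays in the difference. Eomes was higher in ESCs by 0.70 ± 0.168 log2 (SE, limma adjusted p = 0.00442), and its second probe set gave 0.69. Gsc was higher by 0.52 ± 0.113 (limma adjusted p = 0.00242), but both signals were below the lower quartile, and with 32 added to the linear signals the difference was 0.11 and not called. Lhx1 differed by -0.25 ± 0.104 (limma adjusted p = 0.0564), just short of a call. The difference was called under 4 of 14 other settings. It was also called without vehicle replicate 2 or 3, which enter through the shared estimate of the spread. Its second probe set differed by 0.21, the opposite sign. Mixl1 differed by -0.04, with a 95% interval of -0.62 to 0.54.

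Of the posterior genes Mesp2 (0.35), Evx1 (0.33) and Msgn1 (0.31) were higher in ESCs than with IWP2 and Tbx6 (-0.46) was lower. In all, 6 of the 9 genes were called, where 62.1% of all genes were, and the groups did not overlap for 7, against 67.1%. Of the calls 5 were higher and 1 lower, where 35.2% and 26.9% of all genes were. None reached 2-fold, the 2-fold calls over all genes being 7.87% higher and 9.40% lower. The call of Mesp2 ended with quantile normalization repeated (0.29), with cyclic loess (0.25), and without IWP2 replicate 1 or 3 or ESC replicate 3. Those of Msgn1 ended without IWP2 replicate 3 or ESC replicate 1, and that of Tbx6 without ESC replicate 3. The order of the 3 groups was thus vehicle highest for Lhx1, Gsc, Eomes and Mixl1. For Lhx1 (narrowly) and Mixl1 the lower 2 groups did not differ beyond their test, and for Eomes, and for Gsc at low signal, ESCs came second. For Mesp2, Evx1 and Msgn1 ESCs were highest and the EpiSC groups were not told apart. The same held for genes of other lists, such as Evx2 (0.52 for ESC minus vehicle) and Hand1 (0.46).

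**Figure D3:**
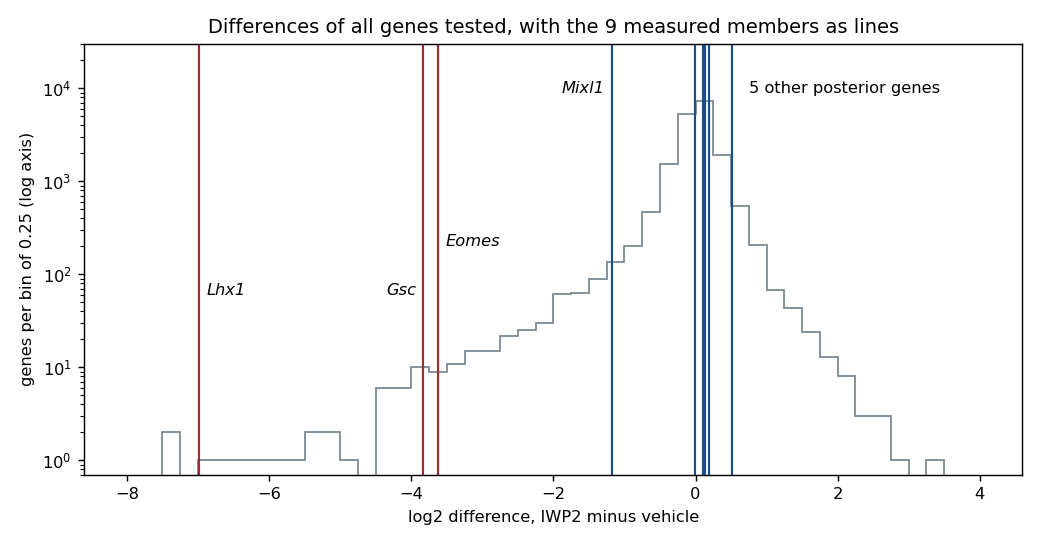
Distribution of the log2 difference IWP2 minus vehicle over all 18193 genes tested, as genes per bin on a log axis. Red lines mark the anterior genes and blue lines the posterior ones. Lhx1, Gsc and Eomes lie in the far left tail at -6.98, -3.83 and -3.62, Mixl1 at -1.18 and the other 5 genes between -0.01 and 0.52.

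Genes of Nodal signalling, which induces the anterior streak genes in the embryo, changed by less than 2-fold with IWP2, Lefty2 aside. Nodal itself read 9.64, 9.85 and 9.64 with vehicle and 9.50, 9.52 and 9.49 with IWP2, a difference of -0.21 (limma adjusted p = 0.056), and 10.21, 10.05 and 10.05 in ESCs. Of 14 measured genes for Nodal ligands, receptors, Smad proteins, FoxH1 and feedback, 6 fell and 2 rose with IWP2, and the median was -0.20. Among all genes tested 16.8% fell and 16.6% rose. Only Lefty2, a feedback inhibitor of Nodal, fell by at least 2-fold (-2.55). The receptor-activated Smad gene Smad2 differed by -0.41 and the type I receptor gene Acvr1b by -0.24. Acvr2a (0.29) and Smad3 (0.26) were the genes that rose, and leaving out single arrays gave 0 to 3 rises in the list.

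Genes that work beside Lhx1 and Gsc in node, midline and anterior mesendoderm fell throughout. All 13 measured were called lower with IWP2 and 0 higher by limma (0 also at an unadjusted p under 0.05), with a median of -2.97, and 9 fell by at least 2-fold. Among all genes tested 16.8% were called lower, and 2.81% by at least 2-fold. Hhex read 9.68, 9.65 and 9.63 with vehicle and 5.59, 5.65 and 5.59 with IWP2. Shh, the midline hedgehog ligand, fell by 6.65 log2, and Foxa2, a forkhead gene of node and endoderm that acts with Lhx1 and Gsc in the embryo, fell by 6.07. The general cofactors of LIM homeodomain proteins changed little. Ldb1 differed by -0.30 and Ssbp3 by -0.38, both called. Otx2 fell by 0.59 with IWP2 and was 4.25 lower in ESCs.

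Genes that accompany the posterior streak and presomitic mesoderm divided. With IWP2, 8 of the 19 measured fell, 7 of these 2-fold or more, 0 rose by limma (0 also at an unadjusted p under 0.05) and 11 missed the threshold. The median was -0.05. Over all genes tested 16.8% were called lower, and 2.81% by at least 2-fold. The genes that fell had vehicle means of 5.40 (Wnt8a) to 9.99 (Cyp26a1). Those not called had vehicle means of 2.12 (Ripply2) to 5.25 (Hes7), apart from Dll1 (6.55). At such low signals a fall could be missed. Cyp26a1, whose product breaks down retinoic acid, fell by 5.02 log2, the R-spondin gene Rspo3 by 3.58 and the growth factor gene Fgf8 by 2.70. The homeobox gene Nkx1-2 read 6.56, 6.95 and 6.79 with vehicle and 3.37, 3.60 and 2.85 with IWP2. In ESCs it read 6.90, 6.90 and 6.95, so that it was low only with IWP2. Sp5, a direct target of Wnt signalling, fell by 1.88 with IWP2 and was 1.11 higher in ESCs than with vehicle. Of the Wnt ligand genes, Wnt8a fell by 1.41, and Wnt3a was not called (5.04 ± 0.114 and 5.19 ± 0.082, SD, n = 3). Of the segmentation genes, Dll3 fell by 0.90, and Hes7 (0.15), Lfng, Dll1 and Ripply2 (0.04) were not called.

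**Figure D4:**
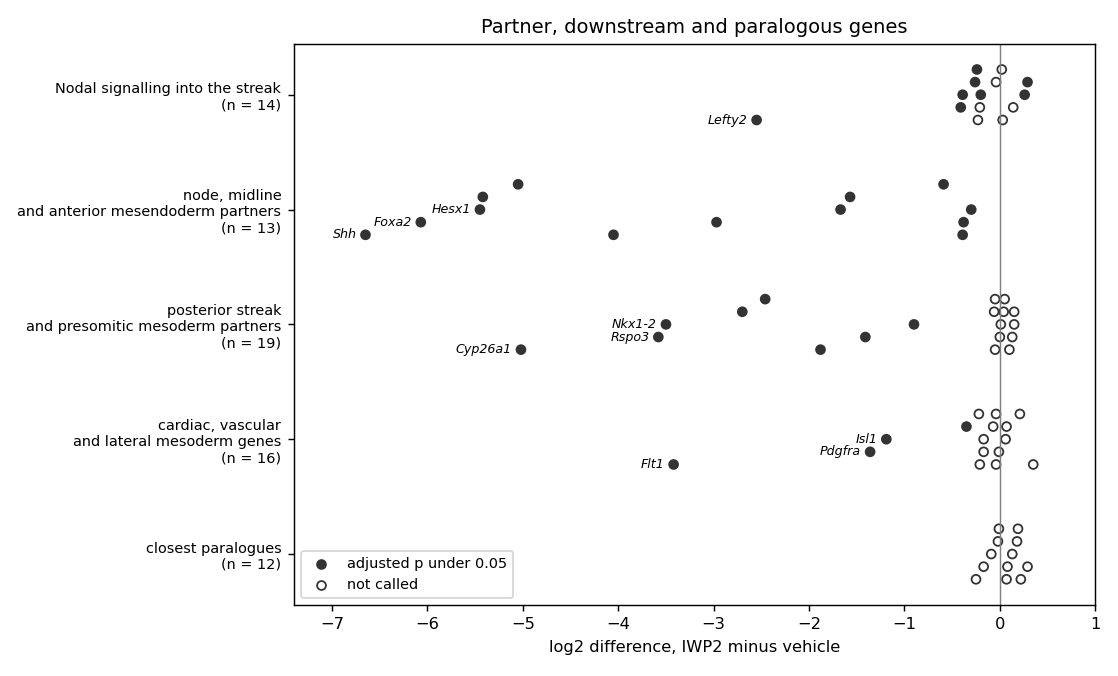
Log2 difference IWP2 minus vehicle (horizontal axis) of the genes in 5 lists (rows), 1 point per gene, with vertical offsets only to separate points. Filled points have a limma adjusted p under 0.05, and names are given for the lowest 3 genes of a list where they lie below -1. All 13 node and midline genes are filled and left of 0, and 8 of the 19 posterior genes are. The paralogues, 6 of 12 with a vehicle mean below the lower quartile, cluster around 0.

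Genes of cardiac, vascular and lateral mesoderm, the fates that follow Mesp1 and Eomes in the embryo, were mostly not called with IWP2. Of 16 measured, 4 were called, where 33.5% of all genes were. These 4 fell and 0 rose with IWP2 by limma (1 rose at an unadjusted p under 0.05), and the median was -0.12. Of all genes 16.8% fell, and 2.81% by at least 2-fold, as 3 of these 4 did. The 12 not called had vehicle means of 3.29 (Tal1) to 5.80 (Kdr), where a fall could be missed, though Pdgfra (4.97) was called. The largest called fall was that of Flt1, a VEGF receptor gene (-3.42), followed by the receptor gene Pdgfra (-1.36) and the homeobox gene Isl1 (-1.19). Without IWP2 replicate 2 or without ESC replicate 1 or 3, 1 gene was called higher, as under 4 of 14 other settings. Of 12 related homeobox and T-box genes 0 were called with IWP2 by limma, and 2 were higher at an unadjusted p under 0.05. With vehicle, 6 of the 12 had a mean below the lower quartile of 3.72, so that a fall of these could hardly be seen. Lhx5, the nearest relative of Lhx1, differed by 0.29 (limma adjusted p = 0.063) and Tbx4 by 0.22 (limma adjusted p = 0.0968). Leaving out vehicle replicate 3, IWP2 replicate 1, or ESC replicate 1 or 3 gave up to 1 call in a direction. Of 14 other settings, 2 gave 1 gene called lower and 1 gave 1 called higher.

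Genes listed as markers of other cell types moved with the anterior genes in part. Over all genes tested, 16.8% were called lower with IWP2 and 16.6% higher. Of 12 extraembryonic endoderm markers 7 fell with IWP2, led by Gata6 (-3.99), Sox17 (-3.35) and Pdgfra, while Gata4, Sox7, Dab2, Afp and Ttr were not called. Their summed linear signal was 2797 to 2849 with vehicle, 1537 to 1612 with IWP2 and 465.8 to 481.4 in ESCs. Lamb1, the brightest of them (means of 10.58, 10.07 and 7.62 in that order), weighs most in this sum. Pdgfra and Gata4 are also in the cardiac list, and Gata6 is among the genes closest to Lhx1 over the arrays (Pearson r = 0.9980). Falls of Gata6 and Sox17 do not tell extraembryonic from definitive endoderm. The summed signal of the 11 trophoblast markers went from between 416.1 and 455.2 to between 237.0 and 255.3. In ESCs, where Tfap2c was high, it was 915.1 to 932.8. Of 12 fibroblast markers 4 fell, led by Col3a1 (-2.30), and 2 rose, with sums of 5386 to 6679 with vehicle, 4130 to 4482 with IWP2 and 2731 to 2852 in ESCs. These sums mostly follow Vim (means of 11.54, 11.57 and 11.28 in that order) and Acta2 (11.16, 9.76 and 6.47), not the list as a whole. Of 9 neural markers Six3 (-1.70) fell and 3 rose, with sums of 987.2 to 1080.0, 1249.0 to 1388.0 and 721.3 to 761.9 in the same order. Their part in the falls of the anterior genes was not tested. In such bulk RNA, fewer cells with a transcript and less transcript per cell cannot be told apart.

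The genes whose signals followed those of an anterior gene most closely over the 9 arrays were sought among 1691 genes with a range of at least 2 log2. For Lhx1 these were Bmp2 (Pearson r = 0.9981), Gata6 (r = 0.9980) and Cer1 (r = 0.9978), and for Gsc they were Pga5 (r = 0.9989), Tgfbr3 (r = 0.9983) and Hhex (r = 0.9964). For Eomes they were Car2 (r = 0.9932), Gm6958 (r = 0.9929) and Slit2 (r = 0.9928). Among 4906 genes with a range of at least 1 log2, Camk1g (r = 0.9633), Ebf2 (r = 0.9602) and Six3os1 (r = 0.9465) came closest to Mixl1. The 9 arrays fall into 3 groups, so these values describe the pattern of 3 group means and carry no test. The Lhx1 set was at 3.82 to 4.29 with IWP2 and at 3.98 to 4.39 in ESCs, nearly level. The Gsc set was higher in ESCs than with IWP2 by 0.40 to 0.92, as Gsc itself was. Since the sets were picked for likeness on these same arrays, such shared order adds no evidence. The remaining 5 posterior genes had a range under 1 log2 and were not used.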

How the data were processed

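The authors deposited log2 signals of 45101 probe sets on 9 arrays, 3 a group. RMA and limma are listed, with no version, per the submitters' processing notes. RMA sets the arrays to 1 common distribution, which would hide a shift in the amount of RNA of whole cells. Array medians were 5.22 to 5.26, replicates correlated at 0.997 to 0.998, and the number of arrays limits the precision. Columns were matched to samples by accession, and groups were taken from the labels.

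The platform annotation gave 34945 probe sets 1 symbol, and the brightest probe set of each gene on average left 18193 genes. The 3 group means were modelled with limma 3.58.1 in R 4.3.3 (lmFit, eBayes, 9.58 degrees of freedom after moderation), with two-sided tests and Benjamini-Hochberg adjustment over all genes. The median standard error of a difference was 0.082. In simulated data of 18193 genes for the IWP2 comparison, 50 genes were changed at each size and all others were left unchanged. Called were 32% of those changed by 0.3 log2, 64% at 0.5, 96% at 1 and 100% at 2, and 4.58% of calls were of unchanged genes. Far fewer genes were changed there than the 6094 called in the data. The adjusted threshold was therefore stricter in the simulation, and its shares do not give the sensitivity in the data. Alternatives concerned the probe set, low signals, the normalization, the variance model, the threshold, a replicate block and each array in turn, and the counts of the lists under them were added after the data were seen.

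The genes followed, the other lists, the motifs and the rules were chosen with earlier results of these data known. All measured members are named. Of other lists, up to 3 called genes with the smallest p per direction in the IWP2 comparison are named, or the 2 smallest where none was called, besides ligands, cofactors and markers that a sentence needed. The genes most like a member are the 3 with the highest Pearson correlation. No list was tested. Same-numbered replicates deviated from their group means with correlations of -0.06 to 0.05, so the numbers were not taken as pairs. Scan dates and protein sequences were not used here.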

Additional observations from a re-analysis of the deposited data

How the results depend on the processing

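The differences of the 9 genes were recomputed under 14 other settings and without each of the 9 arrays, which gave 618 values. Of these 584 stayed on their side of the threshold, 27 lost and 7 gained a call, and 0 called differences changed sign. The falls of Lhx1, Gsc and Eomes against vehicle were called under all settings run, with IWP2 differences of -5.08 to -7.01 for Lhx1, -1.77 to -3.89 for Gsc and -2.81 to -3.89 for Eomes over the settings other than leaving out arrays.

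For IWP2 minus vehicle 6094 genes were called, against 10168 probe sets when every probe set was tested, 3886 at an adjusted p under 0.01 and 345 against a minimum change of 2-fold. Without single arrays the counts were 4949 to 5965. Of the 9 genes 4 were lower (4 without single arrays), and the 1 called higher became 0 at an adjusted p under 0.01, against the minimum change and with the filter on low signal, which removes Tbx6, and was 1 without any single array (Mesp2 in place of Tbx6 without vehicle replicate 1). For ESC minus vehicle 12123 genes were called, against 21764 probe sets and 2148 against the minimum change, and 11077 to 12115 without single arrays. The 3 genes called higher became 0 against the minimum change. For ESC minus IWP2 11298 genes were called, against 20510 probe sets and 2279 against the minimum change, and 10565 to 11323 without single arrays. The 5 genes called higher became 4 with cyclic loess and with repeated quantile normalization, both without Mesp2, 4 with 32 added to the linear signals, without Gsc, 3 at an adjusted p under 0.01 and 0 against the minimum change, and were 3 to 5 without single arrays. The 1 called lower became 2, with Lhx1, under repeated quantile normalization, in the fit of 2 groups alone and with the replicate block. With the filter on low signal the count stayed 1, with Lhx1 (limma adjusted p = 0.0495) in place of Tbx6. It became 0 at an adjusted p under 0.01 and against the minimum change, and was 0 to 2 without single arrays.

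Replicate numbers were shared between groups, but same-numbered arrays did not deviate together. With the replicate block the IWP2 minus vehicle count was 5754 genes, the ESC minus vehicle count 12024 and the ESC minus IWP2 count 11138, and 1 call of the 9 genes changed, that of Lhx1 for ESC minus IWP2 (adjusted p = 0.0483).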

Other observations

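Among the other T-box genes, Tbx3, which is also a marker of naive ESCs, read 9.64, 9.58 and 9.69 in ESCs and 2.55 to 3.04 on the 6 EpiSC arrays. It was 6.98 log2 higher in ESCs than with vehicle and did not differ between the EpiSC groups beyond the test (0.19, limma adjusted p = 0.142). Of the 12 related homeobox and T-box genes, 6 were called higher and 0 lower in ESCs than with vehicle by limma (0 lower at an unadjusted p under 0.05), where 38.7% of all genes were higher. Under 2 of 14 other settings 1 was called lower, and without single arrays 0 to 1 were.

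Within the Nodal list, Gdf3, a Nodal-related ligand gene of naive cells, was 5.35 log2 higher in ESCs than with vehicle, and the convertase gene Pcsk6 was 1.71 higher. The inhibitor gene Lefty1 was 3.19 lower in ESCs, whereas Lefty2 was 0.63 higher there, and with IWP2 Lefty2 fell by 2.55 and Lefty1 by 0.20. Foxh1, the DNA-binding partner of Smad proteins in Nodal signalling, was 1.87 lower in ESCs and 0.39 lower with IWP2.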
